A study of Mus musculus with 5 samples.

Results

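Genes of programmed cell death were followed in hair follicle stem cells sorted from mouse skin: 7 caspases, 16 genes of the BCL2 family, 9 gasdermins, and 12 inhibitors, adaptors and kinases that act with them. The 44 genes were taken by symbol from a table of 55357 Ensembl genes, and each symbol matched 1 row. Of these, 38 had enough reads to be tested. The other 6 were Gsdma2, Gsdmc3 and Gsdmc4, with 0 reads in all libraries, Gsdmc2 with 3 reads, Hrk with 4 and Bik with 12.

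Both groups were mice lacking Ring1a and carrying floxed alleles of Ring1b, treated on the skin with 1% RU-486 daily for 10 days from postnatal day 50. The skin was taken at postnatal day 75, 15 days after treatment ended. The 2 Control libraries came from mice without Cre. The 3 PRC1 i2KO libraries came from mice that also carried K15-CrePR1, a Cre driven by a keratin 15 promoter and switched on by RU-486, so that the comparison asks what loss of Ring1b, with Cre present, changes in cells that already lack Ring1a. PRC1 is the Polycomb complex in which these paralogs place ubiquitin on histone H2A. Each library was made from 50000 cells sorted for EpCAM, CD34 and high α6-integrin and against Sca1. Libraries are named by the number in their title (Control 1 and 3, PRC1 i2KO 1, 2 and 3), and the labels do not say whether they came from separate animals, so that p-values measure only how these libraries vary, which may be technical variation.

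Apoptosis runs through caspases, proteases kept as inactive precursors. In the mitochondrial route, BH3-only proteins engage the guardians of the BCL2 family (such as BCL2, BCL-XL and MCL1) and free the effectors BAX and BAK to open the outer membrane; cytochrome c then assembles the APAF1 apoptosome, which activates caspase-9. In the death receptor route, FAS and TNF receptors recruit FADD, TRADD, RIPK1 and caspase-8, and where caspase-8 is held back RIPK3 can activate MLKL, which ruptures the plasma membrane (necroptosis). In pyroptosis, inflammatory caspases and some other proteases cut gasdermins, whose released ends form membrane pores; in skin, gasdermin A genes are known from the follicle and the differentiating epidermis.

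The libraries held 8270419 to 32463173 estimated reads. Levels below are CPM (reads scaled to library size, with trimmed-mean factors), or the deposited TPM where genes are set against each other, since TPM is scaled to transcript length. Changes are fitted log2 differences, PRC1 i2KO over Control, from edgeR's quasi-likelihood test on all genes, and a gene is called where its Benjamini-Hochberg adjusted p is under 0.05. Rnf2, the gene of Ring1b, differed by -0.37 on the log2 scale (SE 0.12, edgeR adjusted p = 0.0363, and 0.251 without Control 1, 0.0993 without PRC1 i2KO 1 and 0.118 without PRC1 i2KO 2); reads of a whole gene do not check the deletion of an exon. Against the label of CD34-positive stem cells, Cd34 stood at 1548 and 1697 CPM in Control but at 11.0, 12.3 and 37.2 CPM in PRC1 i2KO 1, 2 and 3, and 8 of 10 bulge markers fell, from a summed 20239 to 21247 CPM down to 4802 to 6793 CPM. All 8 markers of the junctional zone and upper follicle, all 10 of the sebaceous gland and all 12 of suprabasal epidermis rose. The part of these shifts in the results below was not tested, and in bulk RNA fewer cells of a type and less RNA per cell cannot be told apart.

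Of the 38 tested genes, 14 rose, 6 fell and 18 were not called. The share called was 52.6%, beside 33.9% of all 15665 tested genes. The share that rose was 36.8% (18.8% of all genes), the share that fell 15.8% (15.1%), and at least 2-fold changes were called in 31.6% (17.3%). The median log2 change was 0.19 over the 38 genes and -0.01 over all tested genes. For 27 of the 38 genes (71.1%) the levels of the 2 groups did not overlap, as for 59.5% of all tested genes. Casp4, Casp12, Gsdmc, Mlkl and Bcl2l14 passed the filter on low counts only through their PRC1 i2KO reads; of the remaining 33 genes 10 rose and 6 fell (48.5%, beside 34.5% of the 13718 genes whose controls both reached the filter's level of 0.536 CPM). Without PRC1 i2KO 1 or PRC1 i2KO 2, 9 of the 44 genes rose in place of 14. The share of all tested genes called was then 26.7% and 25.7%, in place of 33.9%. Fewer of the 44 genes, and fewer of all genes, were also called higher or lower without Control 3, which leaves 1 control.

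**Figure D1:**
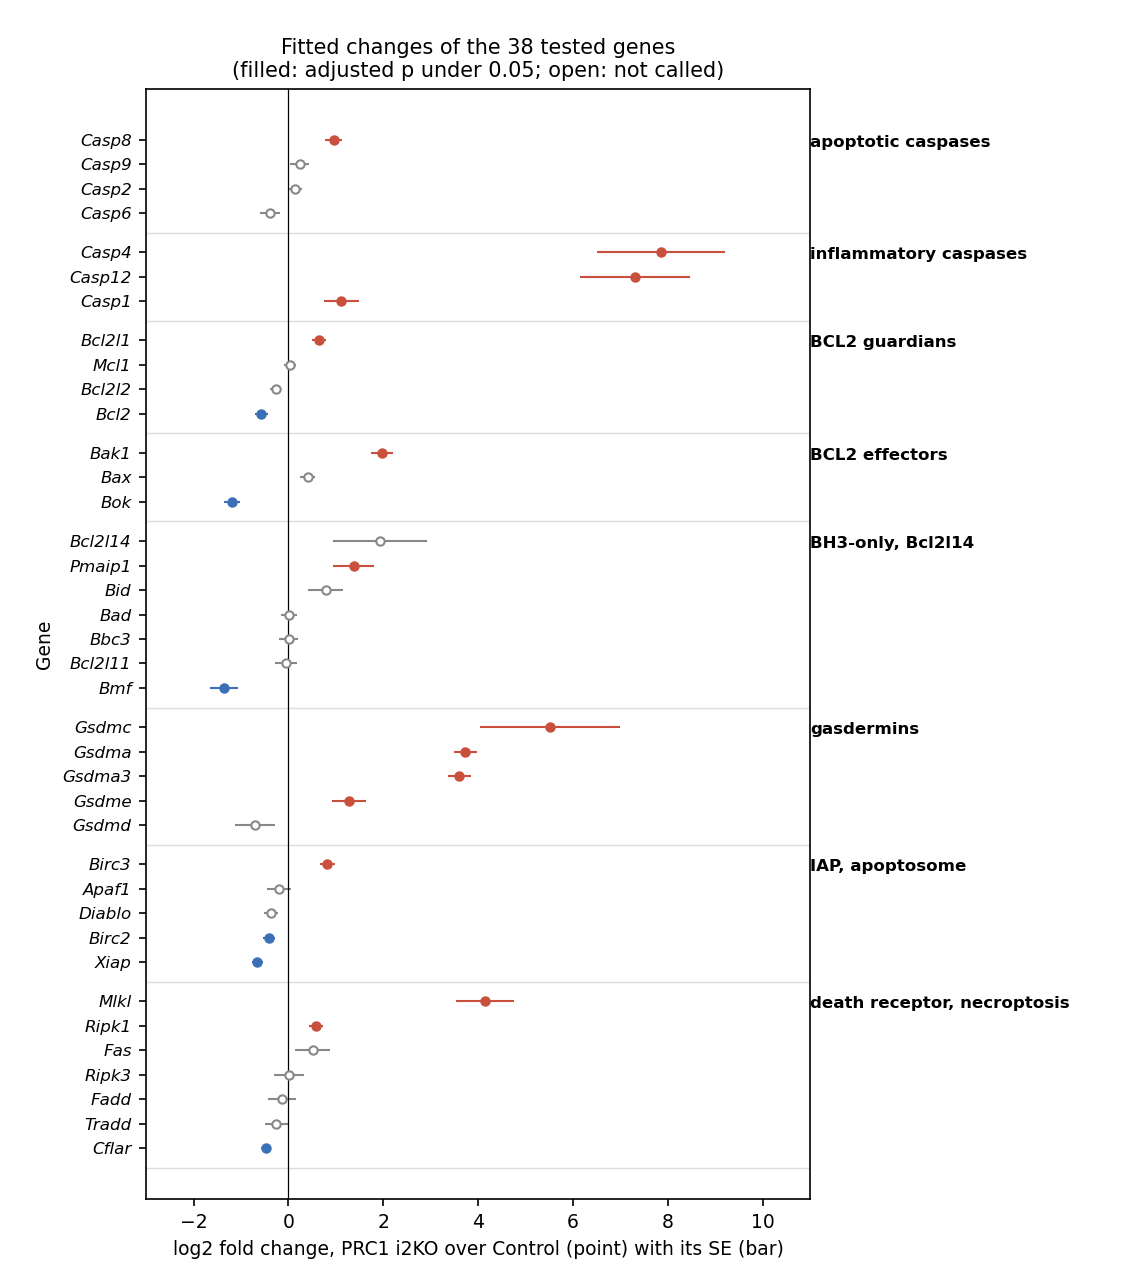
Fitted log2 fold change (x axis, PRC1 i2KO over Control, n = 3 and 2) of the 38 tested genes by role, with its SE as a bar; filled points are called at an adjusted p under 0.05, red higher and blue lower, and open points are not called. The right-hand outliers are Casp4 (7.85), Casp12 (7.30), Gsdmc (5.52) and Mlkl (4.15), each near 0 in the controls, while most apoptosis genes lie within 1 unit of 0.

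All 3 inflammatory caspases were called higher (18.8% of all tested genes were), and Casp4 and Casp12 had the largest fitted changes of the 38 genes. Casp4 and Casp12 passed the filter on low counts only through their PRC1 i2KO reads, so that only a rise could be called. The call of Casp1 was not kept in every alternative fit, as given below. Casp1, Casp4 and Casp12 lie next to each other on mouse chromosome 9 in RefSeq's gene order. Their promoters are shown because these neighbours all rose, from very different control levels, together with that of Gsdma3, the gasdermin gene with the highest TPM in PRC1 i2KO. Each window runs from 250 bases before to 50 bases after the start RefSeq lists (GRCm38.p6, all on the plus strand, and the lower of 2 listed starts for Casp4). They lie at chr9:5298267-5298566 (Casp1), chr9:5308599-5308898 (Casp4), chr9:5345226-5345525 (Casp12) and chr11:98626099-98626398 (Gsdma3), in 5′ to 3′ order. Capitals mark matches on either strand to any of 5 patterns: GAAANNGAA (the core of interferon-stimulated elements), TTCNNNGAA (the STAT palindrome), the NF-κB consensus, the site of AP-1 written TGANTCA, and the core bound by factors of the GATA family, which is written AGATAA.
Casp1: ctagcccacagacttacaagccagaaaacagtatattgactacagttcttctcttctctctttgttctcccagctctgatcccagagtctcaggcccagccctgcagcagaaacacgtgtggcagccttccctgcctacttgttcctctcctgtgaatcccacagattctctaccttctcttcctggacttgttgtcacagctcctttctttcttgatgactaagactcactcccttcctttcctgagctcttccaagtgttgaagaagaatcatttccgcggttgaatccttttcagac
Casp4: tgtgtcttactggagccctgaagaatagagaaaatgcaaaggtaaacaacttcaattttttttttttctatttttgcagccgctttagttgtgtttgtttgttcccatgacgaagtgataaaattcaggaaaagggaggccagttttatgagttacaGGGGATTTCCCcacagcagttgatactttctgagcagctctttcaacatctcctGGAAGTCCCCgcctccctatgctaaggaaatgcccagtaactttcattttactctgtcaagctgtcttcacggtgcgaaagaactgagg
Casp12: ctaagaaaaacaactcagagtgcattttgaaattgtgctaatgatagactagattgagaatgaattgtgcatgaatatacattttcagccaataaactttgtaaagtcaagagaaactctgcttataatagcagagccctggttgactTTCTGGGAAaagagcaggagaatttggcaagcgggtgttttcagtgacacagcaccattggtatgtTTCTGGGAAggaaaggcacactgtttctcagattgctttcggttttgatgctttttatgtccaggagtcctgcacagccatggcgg
Gsdma3: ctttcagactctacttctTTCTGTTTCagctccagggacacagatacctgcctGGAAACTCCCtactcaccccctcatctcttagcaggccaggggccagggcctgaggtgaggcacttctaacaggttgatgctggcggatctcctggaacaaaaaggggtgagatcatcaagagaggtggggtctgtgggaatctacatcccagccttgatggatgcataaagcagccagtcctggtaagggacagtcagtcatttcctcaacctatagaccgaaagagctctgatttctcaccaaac
The Casp4 window held 3 NF-κB matches: GGGGATTTCC and GGGATTTCCC, which overlap, and GGAAGTCCCC. The Casp12 window held the STAT match TTCTGGGAA at 2 places. The Gsdma3 window held the NF-κB match GGAAACTCCC and the interferon-element match TTCTGTTTC, and the Casp1 window held no match. Among the windows of 27025 gene symbols, 8.22% held the NF-κB pattern, 8.37% the STAT pattern, 8.56% the interferon-element pattern, 7.91% the AP-1 pattern and 11.4% the GATA pattern. A match is a description of the letters, not a bound site.

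Casp4 (ENSMUSG00000033538) encodes the caspase that binds bacterial lipopolysaccharide in the cytosol. Control 1 held 0.369 CPM of it and Control 3 held 0, against 29.4, 23.9 and 7.42 CPM in PRC1 i2KO 1, 2 and 3. The groups did not overlap, and PRC1 i2KO 3 held the lowest of the 3 raised values. Its summed reads went from 3 to 934, a depth-adjusted ratio of 251 (exact 95% interval 85.7 to 1220, counting error only), and the gene was called (log2 fold change 7.85, SE 1.35, edgeR adjusted p = 0.00998, and 0.0754 without Control 3). Casp12 (ENSMUSG00000025887), a relative with a reported role in restraining inflammation, stood at 0.123 and 0 CPM in Control and 7.77, 6.30 and 2.05 CPM in PRC1 i2KO. It held 1 control read against 248, a ratio of 200.1 (35.6 to 7936), and was called (edgeR adjusted p = 0.00129). Its call was kept in all 14 alternative fits, with a fitted log2 change of 7.30 (SE 1.16) that was 9.77 without Control 1 and 5.34 without Control 3. Casp1 (ENSMUSG00000025888), which matures interleukin-1β in inflammasomes, was already present in Control at 4.92 and 6.47 CPM and stood at 16.9, 13.5 and 7.32 CPM in PRC1 i2KO. It rose 2.16-fold (log2 fold change 1.11, SE 0.37, edgeR adjusted p = 0.0421), with PRC1 i2KO 3 just above the higher control. This call was lost without any 1 of Control 1, Control 3, PRC1 i2KO 1 or PRC1 i2KO 2 (adjusted p = 0.174, 0.107, 0.132 and 0.121) and on TPM (limma adjusted p = 0.336). By TPM, Casp1 made up 89.2% and 100% of the summed level of the 3 genes in Control, whereas in PRC1 i2KO Casp4 led with 69.9%, 65.8% and 58.0%.

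Leukocytes also express inflammatory caspases. Of 13 leukocyte markers 9 were tested and 3 rose, the antigen presentation genes Cd74, H2-Aa and H2-Eb1, and the summed level went from 35.4 to 39.8 CPM in Control to 99.8 to 138 CPM in PRC1 i2KO. Ptprc, the gene of the pan-leukocyte protein CD45, stood at 0.246 and 0.871 CPM in Control and 0.207, 0.329 and 1.16 CPM in PRC1 i2KO, and Lyz2 had 0 reads in all 5 libraries. Itgam, a myeloid integrin, stood at 0 and 0.156 CPM in Control and 1.04, 1.27 and 0.632 CPM in PRC1 i2KO, higher without overlap but not called (edgeR adjusted p = 0.0652). Cd207, a marker of Langerhans cells, and Csf1r, a receptor of macrophages, overlapped between groups, at 1.26 to 4.18 CPM and 1.11 to 2.11 CPM over the 5 libraries. The other 5 markers (Cd3e, Cd3g, Adgre1, Tyrobp and Fcer1g) stayed at or under 0.862 CPM. The part of leukocyte RNA in the rise of these caspases was not tested.

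**Figure D2:**
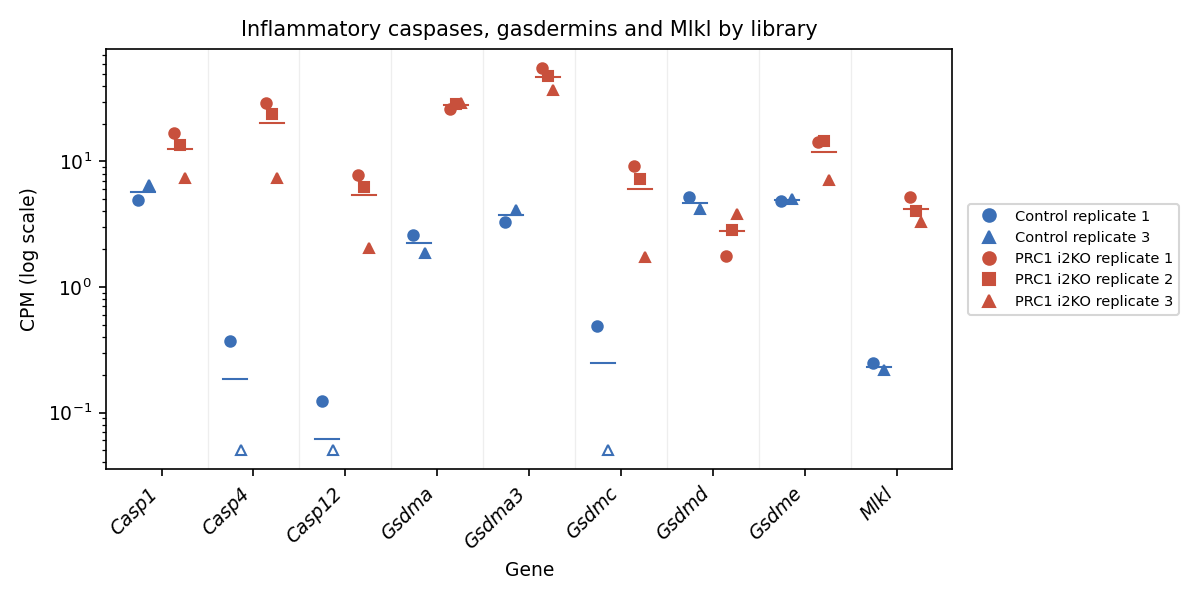
CPM on a log axis of the inflammatory caspases, the tested gasdermins and Mlkl in each library; points are libraries, short lines are group means, and open symbols are values below 0.05 CPM drawn at 0.05 CPM. PRC1 i2KO 3 is lowest of the 3 red points for Casp1, Casp4, Casp12, Gsdma3, Gsdmc, Gsdme and Mlkl but not for Gsdma, and Gsdmd alone has its red points below the blue ones.

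Among the gasdermins, 4 of 5 tested genes rose and none fell, while 18.8% of all tested genes rose and 15.1% fell. Of these 4, Gsdmc passed the filter on low counts only through its PRC1 i2KO reads. Gsdma (ENSMUSG00000017204) and Gsdma3 (ENSMUSG00000064224) are close copies that flank the unread Gsdma2 on mouse chromosome 11, so that estimated reads may be shared between them. Gsdma stood at 2.58 and 1.87 CPM in Control and 26.1, 28.9 and 29.4 CPM in PRC1 i2KO, a 13.3-fold rise (log2 fold change 3.73, SE 0.24, edgeR adjusted p = 4.88e-06). Gsdma3 stood at 3.32 and 4.11 CPM in Control and 55.7, 48.0 and 36.8 CPM in PRC1 i2KO, a 12.2-fold rise (log2 fold change 3.61, SE 0.24, edgeR adjusted p = 5.57e-06). In both genes the lowest PRC1 i2KO library lay at least 8.96 times above the higher control, and both calls were kept in all 14 alternatives. The upper follicle and gland markers moved with them: their summed level was 584 to 815 CPM for the junctional zone and upper follicle and 216 to 223 CPM for the sebaceous gland in Control, against 8423 to 8649 and 2528 to 3149 CPM in PRC1 i2KO, and the suprabasal markers went from 1093 to 1097 CPM to 2437 to 3204 CPM. Their part in the rise of the gasdermins was not tested.

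Gsdmc (ENSMUSG00000079025) had 4 reads in Control 1 and 0 in Control 3, and stood at 9.22, 7.19 and 1.74 CPM in PRC1 i2KO. PRC1 i2KO 1 and 2 averaged 4.73 times the level of PRC1 i2KO 3, the widest such gap among the 14 genes that rose. The fitted change was 5.52 on the log2 scale (SE 1.48, edgeR adjusted p = 0.0325), and the call was lost without Control 3 (0.101), PRC1 i2KO 1 (0.0573) or PRC1 i2KO 2 (0.0714). Its neighbours Gsdmc2, Gsdmc3 and Gsdmc4 held 3 reads between them. Gsdme (ENSMUSG00000029821), which apoptotic caspases can cut, stood at 4.80 and 5.01 CPM in Control and 14.3, 14.6 and 7.05 CPM in PRC1 i2KO. It rose 2.43-fold (edgeR adjusted p = 0.0206), a call lost without any 1 of Control 1, Control 3, PRC1 i2KO 1 or PRC1 i2KO 2 (adjusted p from 0.0694 to 0.102) and on TPM (limma adjusted p = 0.145). Gsdmd, the target of caspase-1 and caspase-4, was not called: it stood at 5.17 and 4.2 CPM in Control and 1.76, 2.82 and 3.84 CPM in PRC1 i2KO (log2 fold change -0.70, SE 0.43, edgeR adjusted p = 0.238). By TPM, Gsdmd was the most abundant gasdermin in Control, with 43.2% and 40.0% of the family's summed level, and held 7.55%, 4.48% and 9.59% in PRC1 i2KO, where Gsdma3 held 64.4%, 63.4% and 59.5%. The TPM of Gsdmd itself overlapped between groups (6.64 and 5.75 in Control, 7.33, 3.87 and 6.91 in PRC1 i2KO), so that its smaller share goes with the larger sum of the family, 15.4 and 14.4 TPM in Control and 97.1, 86.4 and 72 TPM in PRC1 i2KO.

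Other genes of pyroptosis mostly had few reads or were not called. Of 24 such genes 12 were tested, of which Aim2 and Pycard rose, Nek7 fell and 9 were not called (median log2 fold change 0.79). Over all tested genes, 18.8% rose and 15.1% fell. Aim2, a sensor of cytosolic DNA, had 0 reads in both controls and 148 in PRC1 i2KO (4.46, 3.62 and 1.47 CPM), at least 39.8-fold higher against a floor of 3 reads over the Control group (edgeR adjusted p = 0.00125). It passed the filter on low counts only through its PRC1 i2KO reads, so that only a rise could be called. Pycard, the adaptor ASC, went from 10.6 and 20.1 CPM to 29.0, 23.6 and 33.0 CPM (edgeR adjusted p = 0.0407), a call lost without Control 1 (0.161), PRC1 i2KO 1 (0.099), PRC1 i2KO 2 (0.0504) or PRC1 i2KO 3 (0.079). Nek7, a kinase that assists the NLRP3 inflammasome, fell 1.24-fold from 130 CPM (edgeR adjusted p = 0.0297), a call lost without any 1 library other than PRC1 i2KO 3 (adjusted p from 0.0832 to 0.175). The most abundant genes that were not called were the proteases Dpp8 and Dpp9, at 159 and 49.3 CPM in Control and 132 and 51.4 CPM in PRC1 i2KO.

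Of the 16 BCL2 family genes followed, 3 rose, 3 fell, 8 were not called and 2 were not tested. Beside this, 18.8% of all tested genes rose and 15.1% fell. Further relatives are counted with the other apoptosis genes below. Of these, Bcl2l13 and Bcl2l15 rose (edgeR adjusted p = 0.000454 and 0.00192), and Bcl2l12 was not called (0.65). Bcl2l15 passed the filter on low counts only through its PRC1 i2KO reads. Bcl2a1a, Bcl2a1b, Bcl2a1d and Bcl2l10 were not tested. Bak1 (ENSMUSG00000057789), the gene of the effector BAK, stood at 8.37 and 8.34 CPM in Control and 34.8, 39.0 and 24.6 CPM in PRC1 i2KO. It rose 3.92-fold (log2 fold change 1.97, SE 0.23, edgeR adjusted p = 0.000159), and every PRC1 i2KO library lay at least 2.94 times above the higher control. Bok (ENSMUSG00000026278), an effector relative that resides largely at the endoplasmic reticulum, went the other way, from 139.8 and 136.6 CPM to 56.9, 48.0 and 76.2 CPM, a 2.29-fold fall (log2 fold change -1.19, SE 0.18, edgeR adjusted p = 0.00135). Both calls were kept in all 14 alternatives. Bax stood at 17.1 and 19.2 CPM in Control and 22.8, 24.5 and 25.0 CPM in PRC1 i2KO, groups that did not overlap, but was not called (log2 fold change 0.40, SE 0.16, edgeR adjusted p = 0.0819). By TPM, Bok held 79.8% and 79.4% of the summed level of the 3 effector genes in Control and 48.2%, 42.9% and 59.5% in PRC1 i2KO, while Bak1 went from 2.98% and 2.89% to 18.0%, 20.4% and 10.4%. The summed TPM of the 3 effector genes was 254.9 and 258.9 in Control and 148.9, 147.2 and 183.3 in PRC1 i2KO.

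Of the 4 guardians, 1 rose, 1 fell and 2 were not called, beside 18.8% raised and 15.1% lowered over all tested genes. Bcl2 (ENSMUSG00000057329) stood at 58.8 and 48.7 CPM in Control and 34.4, 36.6 and 36.9 CPM in PRC1 i2KO, without overlap. It fell 1.49-fold (log2 fold change -0.57, SE 0.13, edgeR adjusted p = 0.00781), a call lost without Control 1 (0.0817) and on TPM (limma adjusted p = 0.0531). Bcl2l1 (ENSMUSG00000007659), the gene of BCL-XL, rose 1.56-fold, from 27.3 and 28.4 CPM to 38.7, 42.2 and 49.1 CPM (log2 fold change 0.64, SE 0.15, edgeR adjusted p = 0.00828); it was 1 of 2 raised genes in which PRC1 i2KO 3 was not the lowest PRC1 i2KO library, beside Gsdma. Mcl1, the most abundant guardian, stood at 328 and 263 CPM in Control and 307, 332 and 268 CPM in PRC1 i2KO (edgeR adjusted p = 0.865), and Bcl2l2, the gene of BCL-w, at 83.3 and 102 against 72.3, 78.1 and 80.6 CPM (edgeR adjusted p = 0.102). In TPM the order in Control was Mcl1 (165), Bcl2l2 (56.5), Bcl2l1 (26.0) and Bcl2 (13.8). In PRC1 i2KO Bcl2l2 and Bcl2l1 overlapped, at 40.7 to 45.3 and 36.3 to 48.4 TPM. The summed TPM of the 4 genes overlapped between groups (245 and 278 in Control, 246 to 276 in PRC1 i2KO). Bcl2 is also known from melanocytes. Of 6 melanocyte markers 4 were tested: Dct rose from 1.60 and 1.99 CPM to 17.4, 17.0 and 12.9 CPM, and Mitf fell from 163 and 151 CPM to 39.1, 41.2 and 41.0 CPM. Tyrp1 (2.58 and 0.684 against 4.35, 3.43 and 3.32 CPM) and Pmel (2.22 and 1.93 against 2.49, 5.31 and 5.48 CPM) were higher without overlap but not called (edgeR adjusted p = 0.132 and 0.0917), and Tyr and Mlana stayed at or under 0.518 CPM. Their part in the fall of Bcl2 was not tested.

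**Figure D3:**
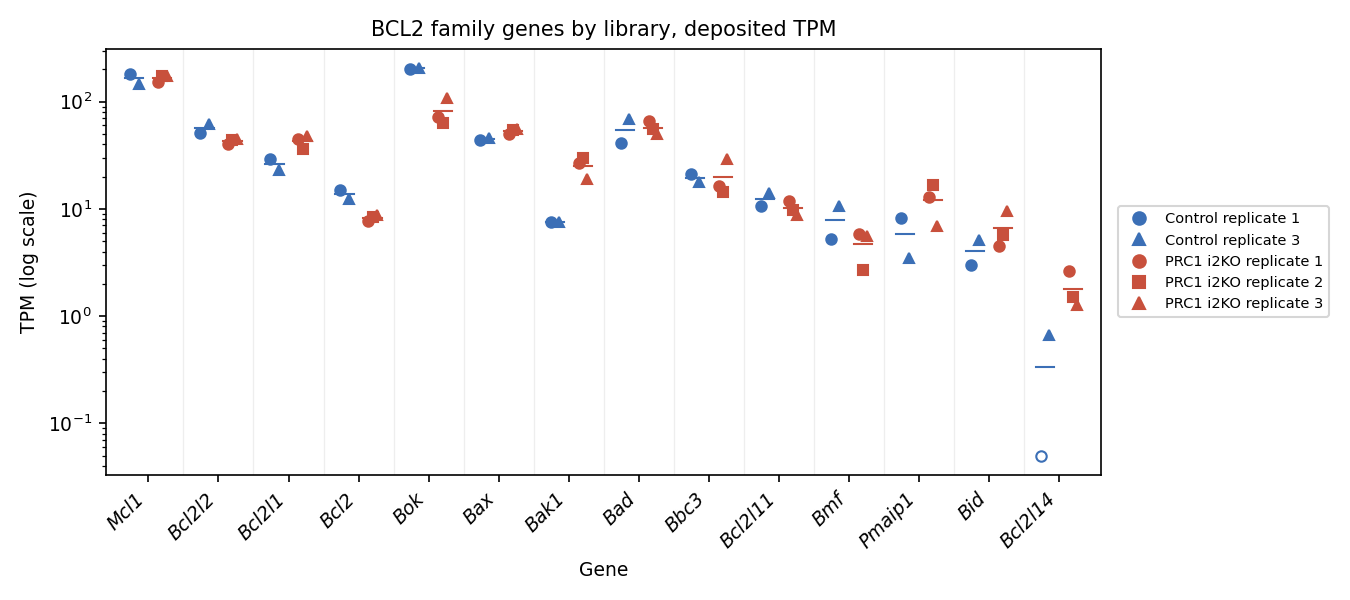
Deposited TPM on a log axis of 14 BCL2 family genes in each library, ordered as guardians, effectors, BH3-only genes and Bcl2l14; points are libraries, short lines are group means, and the open symbol is a value of 0 drawn at 0.05 TPM. Bok lies lower and Bak1 higher in PRC1 i2KO without overlap, and Mcl1 overlaps between groups.

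Among BH3-only genes, which carry death signals to the rest of the family, 5 of 7 tested were not called (Bcl2l14, a more distant relative, is counted with them). Pmaip1 rose and Bmf fell, beside 18.8% raised and 15.1% lowered over all tested genes. Bmf (ENSMUSG00000040093), whose protein is known from cells that lose their anchorage, stood at 13.7 and 21.7 CPM in Control and 6.74, 5.17 and 8.95 CPM in PRC1 i2KO. It fell 2.57-fold (log2 fold change -1.36, SE 0.30, edgeR adjusted p = 0.00651), a call lost without Control 3 (0.105). On TPM the groups overlapped (5.27 and 10.6 against 5.79, 2.7 and 5.58 TPM) and the call was lost (limma adjusted p = 0.275). Pmaip1 (ENSMUSG00000024521), the gene of NOXA and a target of p53, stood at 10.1 and 5.13 CPM in Control and 21.9, 24.2 and 11.1 CPM in PRC1 i2KO, so that PRC1 i2KO 3 was only just above Control 1. It rose 2.60-fold (edgeR adjusted p = 0.0444), a call lost without Control 3 (0.231), PRC1 i2KO 1 (0.105) or PRC1 i2KO 2 (0.112) and on TPM (limma adjusted p = 0.149). Bbc3, the gene of PUMA and another target of p53, stood at 14.9 and 14.6 CPM in Control and 13.9, 14.0 and 16.5 CPM in PRC1 i2KO (edgeR adjusted p = 0.979), and Bcl2l11, the gene of BIM, at 18.2 and 23.5 against 25.8, 20.5 and 15.4 CPM (edgeR adjusted p = 0.904). Bad, with the highest TPM of these genes in both groups (54.9 and 57.2), differed by 0.01 on the log2 scale (edgeR adjusted p = 0.958). Bid, which caspase-8 cuts, went from 3.82 and 6.25 CPM to 6.53, 7.85 and 12.1 CPM without overlap and without a call (log2 fold change 0.78, SE 0.36, edgeR adjusted p = 0.127). Bcl2l14 stayed at or under 2.38 CPM in all libraries and was not called (edgeR adjusted p = 0.167, and 0.0325 without Control 3).

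Of the 4 apoptotic caspases among the 44 genes, Casp8 rose and the others were not called. The shares over all tested genes were 18.8% raised and 15.1% lowered. Casp8 (ENSMUSG00000026029), the initiator of the death receptor route, stood at 16.0 and 14.8 CPM in Control and 34.9, 29.4 and 25.0 CPM in PRC1 i2KO, a 1.93-fold rise (log2 fold change 0.95, SE 0.19, edgeR adjusted p = 0.00356). Its neighbour on mouse chromosome 1 is Cflar (ENSMUSG00000026031), the gene of the caspase-8 inhibitor FLIP, which fell 1.39-fold, from 96.1 and 97.8 CPM to 68.8, 74.9 and 65.0 CPM (log2 fold change -0.48, SE 0.10, edgeR adjusted p = 0.00612, and 0.0509 without Control 3). Neither pair of groups overlapped, and in TPM the genes stood at 14.6 (Casp8) and 40.2 (Cflar) in Control and at 24.6 and 26.4 in PRC1 i2KO. The initiators Casp2 (46.4 and 51.1 against 61.5, 48.2 and 52.3 CPM) and Casp9 (14.6 and 19.0 against 19.0, 17.7 and 23.5 CPM) overlapped between groups and were not called (edgeR adjusted p = 0.472 and 0.408). Casp6, an executioner, stood at 13.2 and 17.1 CPM in Control and 12.0, 11.6 and 11.3 CPM in PRC1 i2KO, lower in every library but not called (edgeR adjusted p = 0.191); on TPM it was called lower (limma adjusted p = 0.0301), with 27.3 and 23.5 against 17.4, 13.9 and 14.1 TPM.

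Of 5 inhibitor of apoptosis and apoptosome genes, 1 rose, 2 fell and 2 were not called (18.8% of all tested genes rose and 15.1% fell). Xiap (ENSMUSG00000025860), the direct inhibitor of caspases, fell 1.58-fold, from 110 and 97.6 CPM to 65.1, 71.7 and 60.8 CPM (log2 fold change -0.66, SE 0.11, edgeR adjusted p = 0.00166), and kept its call in all 14 alternatives. Birc2 and Birc3, neighbours on mouse chromosome 9 that encode the ubiquitin ligases cIAP1 and cIAP2 of TNF receptor complexes, moved apart. Birc2 fell 1.33-fold, from 59.3 and 60.3 CPM to 45.6, 48.5 and 41.1 CPM (edgeR adjusted p = 0.0256), a call lost without Control 1 (0.0865), Control 3 (0.125) or PRC1 i2KO 1 (0.0728). Birc3 rose 1.76-fold, from 21.7 and 23.9 CPM to 44, 42.8 and 34.2 CPM (log2 fold change 0.82, SE 0.16, edgeR adjusted p = 0.00352), a call lost on TPM (limma adjusted p = 0.0751), where the groups did not overlap either (29.8 and 28.2 against 54.0, 47.8 and 34.2 TPM). In mean TPM, Birc2 stood above Birc3 in Control (38.8 against 29.0) and below it in PRC1 i2KO (26.6 against 45.4). Apaf1, the core of the apoptosome, and Diablo, the gene of the XIAP antagonist SMAC, were not called (edgeR adjusted p = 0.604 and 0.0762); Diablo was lower in every PRC1 i2KO library (28.0, 29.4 and 24.2 CPM against 36.8 and 34.0 CPM).

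**Figure D4:**
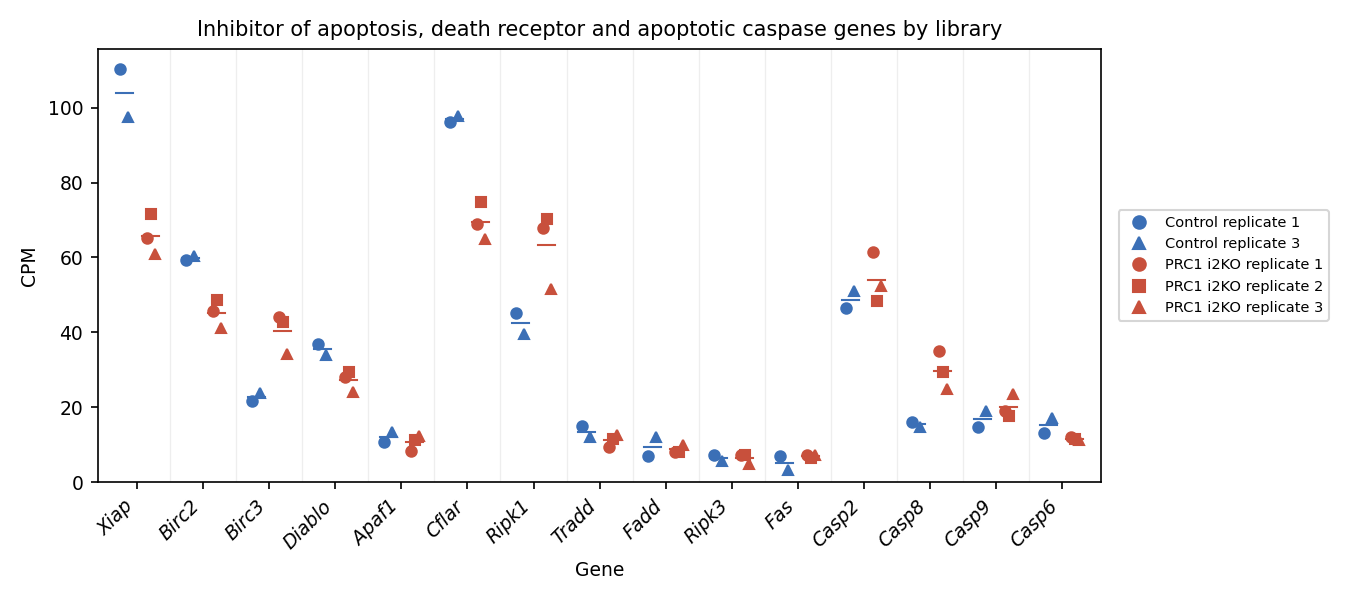
CPM of inhibitor of apoptosis, apoptosome, death receptor and apoptotic caspase genes in each library, on a linear axis from 0; points are libraries and short lines are group means. Xiap, Birc2 and Cflar lie lower, and Birc3, Ripk1 and Casp8 higher, in all 3 PRC1 i2KO libraries, and Casp2, Casp9, Apaf1, Tradd, Fadd, Ripk3 and Fas overlap between groups.

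Of the death receptor and necroptosis genes, Mlkl and Ripk1 rose, Cflar fell as given above, and Fas, Fadd, Tradd and Ripk3 were not called. In the whole set of tested genes, 18.8% rose and 15.1% fell. Mlkl (ENSMUSG00000012519), the executioner of necroptosis, was barely read in Control, at 0.246 and 0.218 CPM (9 reads), and stood at 5.18, 4.0 and 3.26 CPM in PRC1 i2KO (197 reads). It rose 17.7-fold (log2 fold change 4.15, SE 0.61, edgeR adjusted p = 0.000676), and its call was kept in all 14 alternatives. Mlkl passed the filter on low counts only through its PRC1 i2KO reads, so that only a rise could be called. Ripk3, the kinase that activates MLKL, overlapped between groups, at 7.14 and 5.72 CPM in Control and 7.15, 7.24 and 4.95 CPM in PRC1 i2KO (edgeR adjusted p = 0.98). Ripk1 (ENSMUSG00000021408), the kinase upstream of both death and survival signals, stood at 45.0 and 39.7 CPM in Control and 67.9, 70.2 and 51.6 CPM in PRC1 i2KO, a 1.5-fold rise (edgeR adjusted p = 0.0164). This call was lost without Control 3 (0.13), PRC1 i2KO 1 (0.0619) or PRC1 i2KO 2 (0.0708) and on TPM (limma adjusted p = 0.0619). Fas, a death receptor, stood at 6.89 and 3.30 CPM in Control and 7.36, 6.44 and 7.26 CPM in PRC1 i2KO, and the adaptors Fadd and Tradd likewise overlapped between groups (edgeR adjusted p = 0.322, 0.765 and 0.452).

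Of 22 other genes of these pathways 18 were tested, of which 4 rose, 4 fell and 10 were not called (median log2 fold change 0.07). Over all tested genes, 18.8% rose and 15.1% fell. Of the 4 that rose, Zbp1 passed the filter on low counts only through its PRC1 i2KO reads, so that only its rise could be called. Tnfaip3 and Tnip1, which encode A20 and a partner that restrain TNF signals, rose 3.82-fold and 2.56-fold, from 39.3 ± 2.90 to 151 ± 37.9 CPM and from 28.7 ± 1.25 to 73.8 ± 3.71 CPM (SD, n = 2 and 3; edgeR adjusted p = 0.000812 and 2.77e-05). Traf2, an adaptor that recruits the cIAP proteins, rose 1.66-fold (edgeR adjusted p = 0.00687, 0.0517 without Control 3 and 0.0937 by limma on TPM). Zbp1, a nucleic acid sensor that can activate RIPK3, had 0 reads in both controls and 50 in PRC1 i2KO, at least 13.4-fold higher against the same floor (0.622, 0.611 and 1.63 CPM; edgeR adjusted p = 0.0162, and 0.118 without Control 3). Tnfrsf1a, the main TNF receptor, fell 1.52-fold from 399 CPM and Cyld, a deubiquitinase of these complexes, fell 1.42-fold from 85.7 CPM (edgeR adjusted p = 0.0012 and 0.00514). Tab2, an adaptor of the TAK1 kinase, fell 1.33-fold (edgeR adjusted p = 0.0123, 0.0777 without Control 3 and 0.0677 without PRC1 i2KO 2). Ticam1, an adaptor of Toll-like receptors, fell 1.53-fold (edgeR adjusted p = 0.022), a call lost without any 1 library other than PRC1 i2KO 3 (0.0543 to 0.17). Rbck1 and Ikbkb, the most abundant genes not called, stood at 118 and 113 CPM in Control and 137 and 99.5 CPM in PRC1 i2KO.

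Of 29 other apoptosis genes 24 were tested, of which 13 rose, 1 fell and 10 were not called (median log2 fold change 0.37). Over all tested genes, 18.8% rose and 15.1% fell. Of the 13 that rose, Bcl2l15, Birc5, Casp14, Cidea and Cidec passed the filter on low counts only through their PRC1 i2KO reads. Cycs, the gene of cytochrome c, rose 2.08-fold from 38.5 ± 2.61 to 80.4 ± 8.86 CPM (SD, n = 2 and 3; edgeR adjusted p = 0.000243). Bcl2l13, a mitochondrial relative of BCL2, rose 1.95-fold from 59.5 CPM, and Bnip3, a mitophagy receptor, fell 1.93-fold from 29.7 CPM (edgeR adjusted p = 0.000454 and 0.0013). Birc5, the gene of survivin, which also acts in mitosis, rose 14.9-fold to 12.6 CPM (edgeR adjusted p = 0.000387), beside a rise of all 10 cycling markers from a summed 111 to 148 CPM to 613 to 845 CPM, whose part was not tested. Its log2 change was 4.73 without Control 1 and 2.96 without Control 3. Cidea, a lipid droplet protein of sebaceous cells first named for a domain shared with a DNA fragmentation factor, rose 58.4-fold (edgeR adjusted p = 3.8e-06). It is itself 1 of the sebaceous markers, and its log2 change was 6.44 without Control 1 and 4.91 without Control 3. Casp14, which rose 10.6-fold (edgeR adjusted p = 0.00144), is likewise 1 of the suprabasal markers. Birc6 and Bag3, the most abundant genes not called, stood at 214 and 157 CPM in Control and 202 and 173 CPM in PRC1 i2KO.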

How the data were processed

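The authors deposited 1 table with a column of expected counts and a column of TPM for each of 5 libraries; fractional values in 9.06% of genes show that the deposited counts are expected counts. Per the submitters' processing notes, the tools were DESeq2 1.38.2, RSEM 1.3.3 and STAR 2.7.9a, and mm39 was the genome build, with no role given; annotation and strand setting were not given in the sources used here. Estimated reads of close paralogs, overlapping genes and antisense pairs are uncertain. The control called 3 by its title and table column carries another number in its description.

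Counts were rounded and fitted with edgeR 4.0.16 (R 4.3.3; filterByExpr, TMM, robust quasi-likelihood F test, genotype as the only term), with Benjamini-Hochberg adjustment over 15665 genes. SEs were taken as the absolute log2 change over the root of its F statistic. The fit and the limma fit were also run on simulated counts whose altered genes all had many reads. That run does not bear on genes with few reads or on the spread between these libraries. Folds against 0 reads are lower bounds against 3 reads summed over the group (0.0745 CPM in Control); floors and intervals cover counting error only. Libraries of 1 group differed beyond sampling noise (9.80 to 39.0 chi-square units per degree of freedom), so none were merged. All 44 genes are named. Of 3 lists of other pathway genes, up to 4 called genes in each direction and the 2 most abundant uncalled genes are. Further BCL2 relatives on those lists are named as well, as are raised genes that passed the filter only through their PRC1 i2KO reads. The members and lists were chosen with earlier results of these data known. The 14 alternatives were DESeq2 1.42.0 (its size factors, and its test), library totals, no filter, a filter of 1 CPM in 3 libraries, limma 3.58.1 on log2(TPM + 1), on log2(TPM + 0.1) and on unfiltered log2(TPM + 1), the replicate number as a block, and each library left out. Promoter sequences are RefSeq's (GRCm38.p6), read by symbol for 35 of the 44 genes; 2 of the 5 patterns were redefined after a first search of these windows.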

Additional observations from a re-analysis of the deposited data

How the results depend on the processing

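Of the 14 alternatives, 6 kept all 20 calls among the 44 genes and added none: DESeq2's size factors, DESeq2's test, library totals, no filter, the stricter filter and leaving out PRC1 i2KO 3. On log2(TPM + 1) and log2(TPM + 0.1) 9 genes rose, and without a filter 6 rose and 2 fell; the cause was not tested. That unfiltered fit called 2991 genes of the whole table and 15 of the other pathway genes, in place of 5310 and 25. The TPM fits moved the median log2 change of all genes to -0.132 and -0.154, so that small negative TPM values are near that median, and the pseudocount of 1 lowers the log2 change of genes with low TPM, to 2.31 for Casp12 and 1.93 for Mlkl. Leaving out 1 library at a time gave 3322 to 5856 genes called in all, 9 to 14 of the 44 genes raised, 3 to 6 lowered, and 13 to 24 other pathway genes called, each lowest value being reached without Control 3. Fewer libraries then enter the fit.

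With the replicate number as a block, 4421 genes were called, and of the 44 genes 12 rose and 6 fell; Casp1 (adjusted p = 0.134) and Gsdme (0.0687) lost their calls. Of the other pathway genes 22 were called in place of 25, and Zbp1 (0.0524), Ticam1 (0.0633) and Nek7 (0.0709) lost their calls, as did Rnf2 (0.1045) and the fibroblast marker Col1a1 (0.111). Only numbers 1 and 3 are shared between the groups. Deviations of same-numbered libraries from their group means correlated at 0.0737 and 0.115 across genes. The deviations of the 2 controls mirror each other, so these values cannot decide whether a shared number marks a pairing or batch. Under the block the uncalled Mcl1, Ripk3 and Cd207 turned to -0.0324, -0.109 and -0.325 on the log2 scale.

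The other changes of direction were in genes not called in either fit. On log2(TPM + 1), with or without a filter, and on log2(TPM + 0.1), the log2 differences were -0.0190 and -0.0208 for Casp2, -0.0326 and -0.0368 for Bbc3, and -0.0184 and -0.0185 for Bag3. They were -0.147 and -0.148 for Rbck1, -0.115 and -0.119 for Dpp9, -0.0448 and -0.0676 for Cd207, and -0.530 on log2(TPM + 0.1) for Pecam1. With 1 library left out they ran from -0.118 to 0.202 for Mcl1, -0.154 to 0.231 for Bad, -0.218 to 0.163 for Bcl2l11, -0.0775 to 0.0608 for Bbc3, and -0.450 to 0.338 for Fadd. They ran from -0.152 to 0.181 for Ripk3, -0.132 to 0.00239 for Birc6, -0.0683 to 0.381 for Bag3, -0.353 to 0.870 for Cd207, and -0.302 to 1.65 for Pecam1. Depth limits genes near 0 reads in Control: with 1 library left out the fitted log2 change ran from 5.73 to 11.69 for Casp4, from 5.34 to 9.77 for Casp12 and from 3.58 to 9.94 for Gsdmc.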

Other observations

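PRC1 i2KO 3 held the lowest PRC1 i2KO level in 12 of the 14 genes that rose (85.7%), and in 56.4% of the 2939 genes of the whole table that rose. Of the 6 genes that fell, PRC1 i2KO 3 was the highest PRC1 i2KO library in 3 (61.1% of all genes that fell). PRC1 i2KO 1 and 2 averaged 4.73 times the level of PRC1 i2KO 3 for Gsdmc, 3.59 times for Casp4 and 3.43 times for Casp12. The ratio was 2.08 for Casp1 and Pmaip1 and 2.05 for Gsdme, and it was 1.41 for Gsdma3 and for Mlkl, which was barely read in Control. It ran from 0.823 (Bcl2l1) to 1.5 (Bak1) in the other raised genes, Gsdma at 0.934 among them.

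CpG dinucleotides were counted in the promoter windows. Over all 27025 listed windows the median was 7 CpGs per 300 bases, and 44.2% of windows held 5 or fewer. The median was 5 in the 11 raised genes with a listed window, 14 in the 6 genes that fell and 24 in 16 genes that were not called. Over all tested genes the medians were 20 for 2227 raised genes, 20 for 1829 lowered genes and 20 for 7038 genes not called. Among the raised genes the count ran from 1 (Bcl2l1, whose lowest-coordinate start of 3 was used) and 2 (Gsdma3) to 22 (Ripk1) and 24 (Gsdme). These are values of 1 listed start per gene, and the start used in these cells was not measured.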
